A study of Mus musculus with 30 samples.

Results

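Wild-type mouse embryonic stem (ES) cells were compared with the motor neurons induced from such cells, by poly(A) RNA sequencing across all genes. The libraries were taken by their labels: 2 of ES cells and 2 of motor neurons, 4 of the 8 RNA libraries of a series of 30 libraries. Both groups are labelled wild type. The ES cells were grown in serum medium with LIF, the cytokine that holds them in the pluripotent state. The motor neurons were taken after 6 days of induction through floating embryoid bodies: 1 µM RA (retinoic acid) and 1 µM SAG (a Smoothened agonist that switches on hedgehog signalling) from day 2, then the same agents with 1 µM DOX and 5 µM DAPT (a gamma-secretase inhibitor that blocks Notch signalling) from day 4. The other RNA libraries of the series are motor neurons without Mnx1, a homeodomain factor of motor neurons, and entered the fit here only to share the estimate of the spread. The labels do not say whether libraries of 1 group came from separate cultures, so the p-values measure the spread between these libraries, which may be technical. An exact permutation test of 2 against 2 libraries cannot give a p below 0.333, and single genes were therefore tested with edgeR's quasi-likelihood model over all genes.

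ES cells are dividing, pluripotent cells with short gap phases, a high rate of glycolysis and ribosome production, and a network of factors around Oct4, Nanog and Sox2. Spinal motor neurons are post-mitotic cells that send an axon to muscle and release acetylcholine there. Retinoic acid gives neural cells a posterior identity and hedgehog signalling a ventral one, and together they carry progenitors to the motor neuron state, which is marked by the homeodomain factors Isl1, Lhx3 and Mnx1.

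The libraries held 53.2 M and 51.3 M estimated counts (M, 10 to the power of 6) in ES cells and 13.9 M and 13.9 M in motor neurons, so low genes were measured with less error in ES cells. Genes at 1 TPM or more (TPM, a level per transcript length that sums to the same total in every library) numbered 13500 and 13751 in the ES cell libraries and 15100 and 14909 in the motor neuron libraries. Replicates correlated at 0.994 in ES cells and 0.9949 in motor neurons across genes (Pearson's r of log2 CPM). The label of each group held against its markers. The 8 ES cell markers summed to 7250.0 and 6493 TPM in ES cells and to 135 and 147 TPM in motor neurons, and the 8 motor neuron markers to 2.40 and 2.62 TPM in ES cells and 1777 and 1499 TPM in motor neurons. The trophoblast markers, of a placental lineage that the induction does not aim for, also moved: 8 of 9 were higher in motor neurons, and they summed to 5.58 and 5.26 TPM in ES cells and 533 and 539 TPM in motor neurons. Endothelial markers summed to 39.5 and 30.5 TPM in ES cells and 144 and 169.7 TPM in motor neurons, and Cdh5 held most of the motor neuron value (103 and 122 TPM) while Pecam1 and Tek were lower in motor neurons. Tpbpa was the one trophoblast marker without a count in ES cells. Astrocyte markers summed to under 20 TPM and oligodendrocyte lineage markers to under 50 TPM in every library. Neural progenitor markers summed to 409 and 346 TPM in ES cells and 324 and 273 TPM in motor neurons, with 2 of 7 higher and 2 lower. Endoderm markers were low, with 2.20 and 4.13 TPM in ES cells and 16.0 and 12.1 TPM in motor neurons, and 4 of 6 were higher. In such bulk samples fewer cells of a type and less RNA per cell cannot be told apart.

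Of 17770 genes tested, 13382 differed between the groups at an adjusted p under 0.05, which is 75.3% of those tested. In motor neurons 6898 were higher (38.8%) and 6484 lower (36.5%), and the median log2 fold change of all tested genes was 0.02. The counts of each direction depend on the scale. TPM gives motor neurons a higher value than the count fit does, and the median difference over genes was 0.53 with limma on log2(TPM + 1) and 0.29 with counts scaled to library totals. Accordingly 51.5% of the calls were higher in the count fit, 59.7% with library totals and 69.7% with limma on log2(TPM + 1). Levels are therefore given in TPM and differences as log2 fold changes of the count fit (± SE, 2 libraries a group). These fold changes tend to lie below the log2 ratio of the TPM values. The gap differs from gene to gene, and some genes, such as Dnmt3a, do not follow it. Every gene said to have risen or fallen passed the test of the count fit, and lists are read against the 38.8% and 36.5% above.

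A gene was counted as turned on when it rose, stood under 1 TPM in both ES cell libraries and reached 5 TPM in both motor neuron libraries. By this rule 824 genes (4.64%) were turned on and 108 (0.608%) were turned off by the reverse rule. The reverse rule is strict for a bulk culture, since it needs under 1 TPM in motor neurons. All 25 core pluripotency factors fell, 24 of them past 4-fold, but 2 were counted as turned off. Past 4-fold, 3279 genes (18.5%) were higher and 2157 (12.1%) lower, a smaller contrast. The genes turned on held 2.46% of all TPM in motor neurons, with a median of 15.0 TPM a gene. The genes turned off held 0.24% of all TPM in ES cells, with a median of 13.3 TPM. Genes turned on were long: their median span on the genome was 40.5 kb, against 21.9 kb for all tested genes and 14 kb for the genes turned off. Their median transcript was 3114 bases long, against 2395 for all tested genes and 1677 for the genes turned off.

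The highest gene turned on, among those with an established name, was Ecel1, which encodes a neuronal metallopeptidase and stood at 0.16 and 0.2 TPM in ES cells and 468 and 332 TPM in motor neurons. Mnx1 came next (0.36 and 0.29 TPM in ES cells, 395 and 343 TPM in motor neurons), followed by the placental serpin Serpinb9e (0.03 and 0.01 TPM in ES cells, 336 and 389.7 TPM in motor neurons). By the rule for genes turned on, the groups cannot overlap for any of them. Others among the 15 highest were Slc18a3, the vesicular acetylcholine transporter (0.47 and 0.27 TPM in ES cells, 350.1 and 309.9 TPM in motor neurons), Dcx, the microtubule protein doublecortin of young neurons (0.01 and 0.03 TPM in ES cells, 309.8 and 308 TPM in motor neurons), the secreted neuronal protein Nell2 (0.26 and 0.78 TPM in ES cells, 296 and 282 TPM in motor neurons), and the septin Sept5 (0.91 and 0.9 TPM in ES cells, 239 and 226 TPM in motor neurons). Slc10a4, a solute carrier of cholinergic and monoaminergic vesicles, was at 0.04 and 0.19 TPM in ES cells and 234 and 183 TPM in motor neurons. The placental gene Tpbpa had no count in ES cells and 256 and 203 TPM in motor neurons, at least 4660-fold higher, with the ES cell group set to 3 counts in all.

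The genes turned off with an established name were led by the long non-coding RNA Platr10, at 167 and 205 TPM in ES cells and 0.43 and 0.47 TPM in motor neurons. Fgf4, the fibroblast growth factor that ES cells make for themselves, went from 80.1 and 74.4 TPM to 0.48 and 0.39 TPM, and the Nodal antagonist Lefty2 from 58.8 and 53.7 TPM to 0.87 and 0.69 TPM. Tcl1, a coactivator of Akt kinase, was at 89.95 and 45.2 TPM in ES cells and 0.85 and 0.11 TPM in motor neurons. The list also held genes better known from other tissues: Nphs1, the kidney slit diaphragm protein nephrin (61.9 and 70.8 TPM in ES cells, 0.37 and 0.21 TPM in motor neurons), Aire, the thymic transcription regulator (32.6 and 30.7 TPM in ES cells, 0.27 and 0.16 TPM in motor neurons), and the keratin Krt42 (36.2 and 18.5 TPM in ES cells, 0.28 and 0.09 TPM in motor neurons).

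Among the most abundant transcripts the differences were smaller. Eef1a1, an elongation factor of translation, was the highest nuclear gene with an established name in both groups, with 9048 and 8497 TPM in ES cells and 7443 and 7352 TPM in motor neurons. In motor neurons Tuba1a, the alpha tubulin of growing neurons, came next with 7351 and 7227 TPM against 562 and 589 TPM in ES cells, while the 10 highest genes of ES cells held ribosomal proteins, the glycolytic enzyme Gapdh and the nucleolar protein Npm1. The 100 highest genes held 35.0% of all TPM in ES cells and 26.6% in motor neurons.

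**Figure D1:**
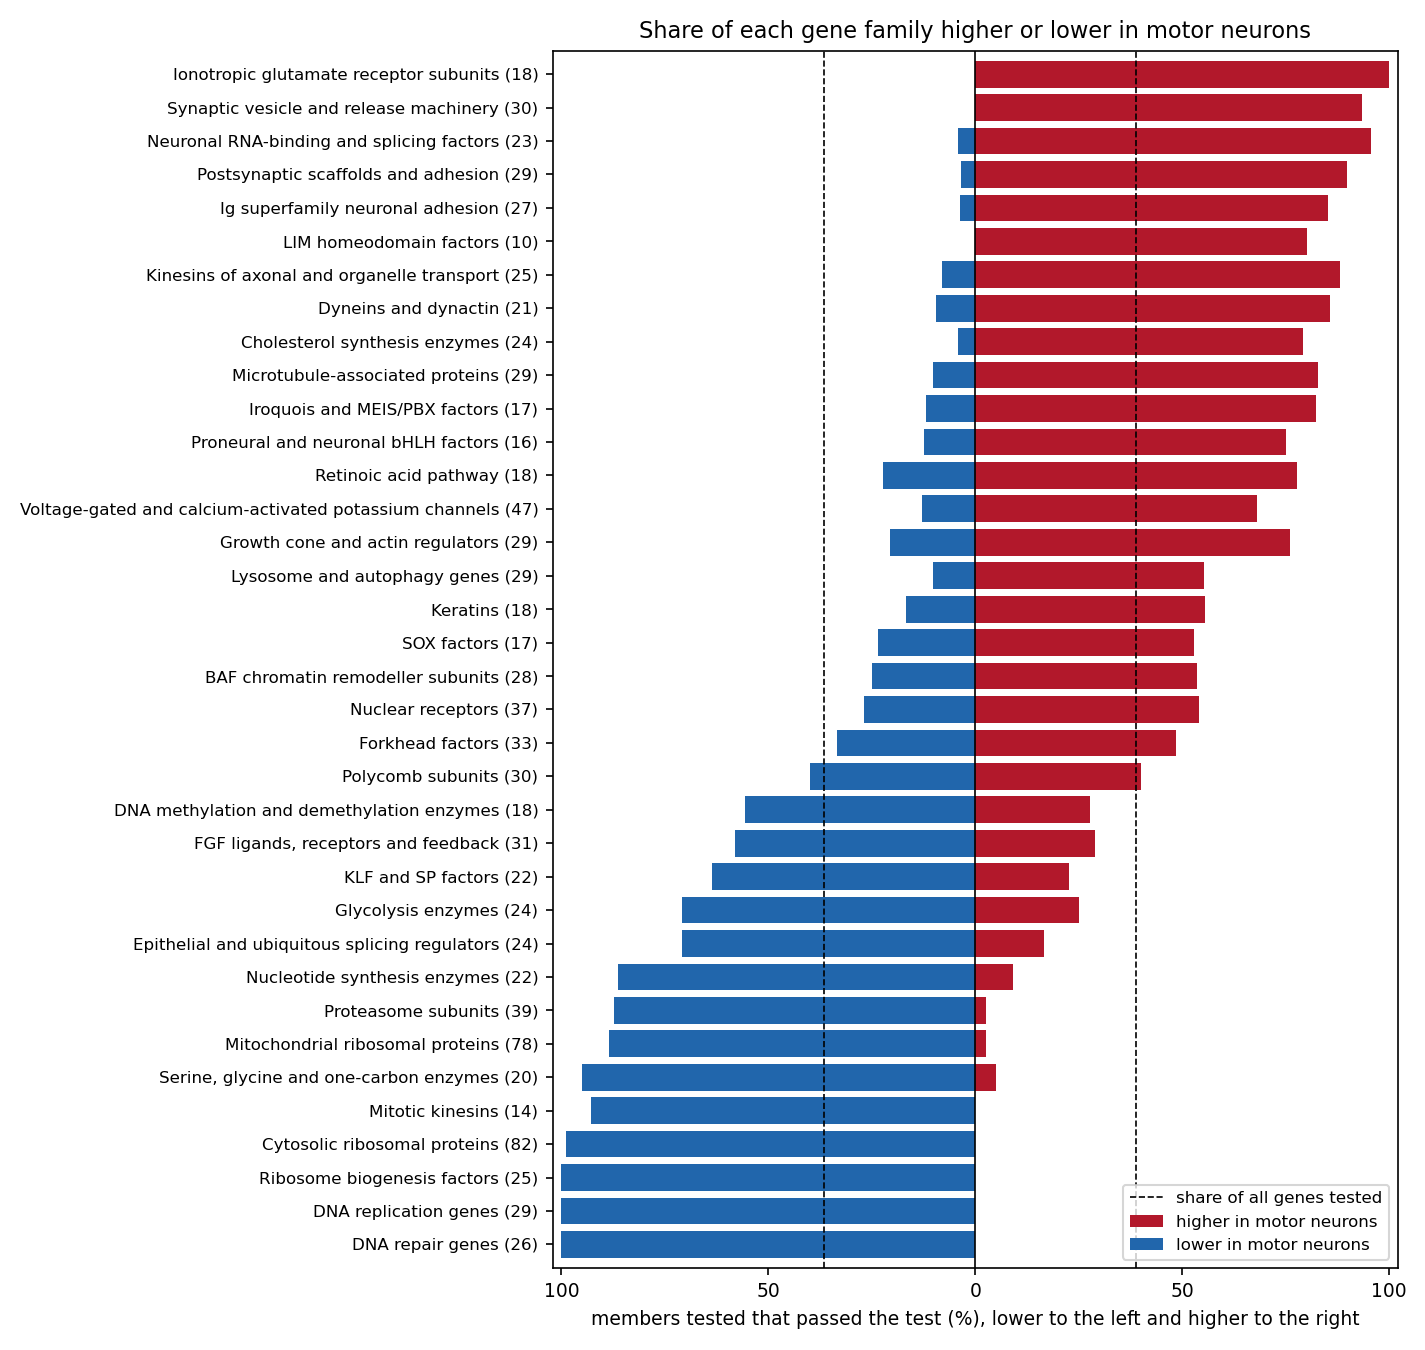
Share of tested members of each gene family that were higher (right) or lower (left) in motor neurons at an adjusted p under 0.05, in percent, with the shares of all tested genes as reference lines. Neuronal families lie to the right, growth and division families to the left, and most transcription factor families hold members of both directions.

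Several transcription factor families held members of both directions, as did all tested genes (38.8% higher and 36.5% lower), so a split alone sets no family apart. Of 12 POU factors 7 rose and 5 fell, but their summed level dropped from 1651 and 1512 TPM to 87.3 and 91.3 TPM, of which Pou5f1 (Oct4) alone held 1605 and 1454 TPM in ES cells and 11.5 and 13.5 TPM in motor neurons. The neural member Pou3f3 rose (0.08 and 0.08 TPM in ES cells, 9.07 and 9.75 TPM in motor neurons, log2 fold change 6.21 ± 0.18), as did Pou6f1 (1.20 and 1.00 TPM in ES cells, 10.2 and 9.17 TPM in motor neurons). Among 17 SOX factors 9 rose and 4 fell, and the family's total was of similar size, 333 and 293 TPM in ES cells and 394 and 376 TPM in motor neurons. Sox2, shared by ES cells and neural progenitors, fell from 237 and 198 TPM to 5.67 and 3.51 TPM, while Sox11 and Sox4, which act in differentiating neurons, rose (Sox11 from 4.92 and 8.41 TPM to 111 and 112 TPM, Sox4 from 9.32 and 13.5 TPM to 137 and 125 TPM). The SOX family thus changed its leading member between the groups.

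The KLF and SP zinc finger factors were lower as a family: 14 of 22 fell and 5 rose, with a median log2 fold change of -1.28. Klf2, Klf5 and Klf9, of which the first pair belong to the circuit that keeps ES cells naive, were all lower in motor neurons. Klf2 went from 191 and 133 TPM to 4.67 and 5.19 TPM, Klf5 from 92.6 and 66.6 TPM to 6.16 and 7.66 TPM and Klf9 from 50.4 and 52.7 TPM to 8.22 and 9.29 TPM. Zic and Gli factors, zinc finger proteins of which the Gli proteins carry the hedgehog signal, had 5 of 10 lower and 3 higher. Zic5 fell from 16.5 and 22.6 to 1.37 and 0.69 TPM. Gli1, a transcriptional target of hedgehog signalling, was also lower on day 6 (55.2 and 48.6 TPM in ES cells, 10.5 and 6.43 TPM in motor neurons), in a culture that still held SAG. Forkhead factors had 16 of 33 higher and 11 lower. Foxd3, a regulator of pluripotency, was at 16.8 and 16.3 TPM in ES cells and 0.06 and 0.11 TPM in motor neurons, a ratio of 301 between the groups (95% counting interval 103 to 1460.0), and Foxh1, the DNA-binding partner of Smad proteins in Nodal signalling, fell from 33.8 and 36.4 to 4.36 and 3.12 TPM.

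Homeodomain families outside the POU group went mainly the other way. Of 17 Iroquois, Meis and Pbx factors 14 rose and 2 fell, the median log2 fold change was 3.76, and their total went from 260.4 and 249 TPM to 1455 and 1359 TPM. Meis2, a cofactor of Hox proteins, was at 1.92 and 1.69 TPM in ES cells and 236 and 233 TPM in motor neurons (log2 fold change 6.56 ± 0.15, edgeR adjusted p 9.23e-08). The Iroquois genes Irx1, Irx3 and Irx5, which pattern the neural tube, rose (Irx1 from 0.42 and 0.62 TPM to 158 and 142 TPM, Irx3 from 0.25 and 0.32 TPM to 124 and 102 TPM and Irx5 from 0.34 and 0.32 TPM to 87.2 and 74.7 TPM). The Iroquois genes were under 1 TPM in both ES cell libraries and above 70 TPM in both motor neuron libraries. Hox genes, whose products set position along the body axis, rose in 26 of 29 and were led by Hoxb5 (0.16 and 0.1 TPM in ES cells, 229 and 253 TPM in motor neurons). LIM factors rose in 8 of 10, with Isl1 at 0.82 and 1.29 TPM in ES cells and 363 and 283 TPM in motor neurons. Nkx6-1, a hedgehog-induced factor of motor neuron progenitors, rose from 0.01 and 0.03 to 29.3 and 23.8 TPM, and Nkx6-2 from 5.41 and 4.83 to 60.7 and 43.7 TPM. Over the 6 Nkx factors tested, 2 were higher and 3 lower, a split that turned to 2 and 1 under limma on TPM.

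The leading neuronal zinc finger and bHLH factors were near 0 in ES cells. Of 20 factors of the Myt1, Onecut and related group 15 rose, and 8 were turned on. Myt1, a neuronal repressor, was at 0.09 and 0.01 TPM in ES cells and 89.7 and 76.1 TPM in motor neurons, and its relative Myt1l at 0.01 and 0.03 TPM in ES cells and 18.5 and 16.7 TPM in motor neurons. Of 16 proneural and neuronal bHLH factors 12 rose, with Neurog2, which starts neuronal differentiation, going from 0.05 and 0.06 TPM to 43.7 and 32.7 TPM. Ebf3, which acts in differentiating neurons, rose from 0.06 and 0.05 to 11 and 10.9 TPM. The Id proteins, which block bHLH factors by binding their partners, did not move as 1 group: Id1 fell from 63.7 and 65.6 TPM to 24.7 and 18.5 TPM and Id4 rose from 2.61 and 1.70 TPM to 77.6 and 94.4 TPM, with Id2 rising less (21.1 and 25.3 TPM in ES cells, 68.6 and 72.6 TPM in motor neurons). Rest, the repressor of neuronal genes in other cells, fell from 69.6 and 65.9 TPM to 11.4 and 12.9 TPM (log2 fold change -3.12 ± 0.24). Its corepressor gene Rcor3 rose from 3.62 and 3.53 to 32.2 and 26.96 TPM.

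Nuclear receptors had 20 of 37 members higher and 10 lower, with a median log2 fold change of 0.86. Nr2f1 (COUP-TFI), a receptor of neural and posterior tissue, was at 0.12 and 0.11 TPM in ES cells and 105 and 112 TPM in motor neurons. Rarb, the retinoic acid receptor whose gene is itself a target of retinoic acid, rose from 0.19 and 0.1 TPM to 57.97 and 58.9 TPM. Cyp26b1, which breaks retinoic acid down, and Stra6, the membrane carrier of retinol, rose with it (Cyp26b1 from 0.07 and 0.1 TPM to 96.9 and 192 TPM, Stra6 from 0.11 and 0.14 TPM to 61.6 and 54.8 TPM), and 14 of 18 genes of the pathway rose. Pparg, best known from fat cells and also active in trophoblast, was at 0.03 and 0.02 TPM in ES cells and 46.99 and 56.96 TPM in motor neurons, a ratio of 1480.0 with a 95% counting interval of 505 to 7180.0. Gata2, Gata3 and Tbx2, factors of trophoblast and other tissues, rose as well (Gata2 from 1.66 and 0.87 TPM to 42.5 and 55.6 TPM, Gata3 from 0.31 and 0.2 TPM to 14.2 and 15.1 TPM and Tbx2 from 0.08 and 0.12 TPM to 13.1 and 8.99 TPM), in the same libraries in which the 9 trophoblast markers summed to 533 and 539 TPM; the part of that lineage in these values was not tested. The 384 tested Zfp zinc finger genes, many of them repressors of repeat elements, were balanced, with 141 higher and 146 lower, which turned to 167 and 120 with counts scaled to library totals.

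Several signalling genes of the ES cell state fell. Of 31 genes of FGF signalling 18 fell and 9 rose. Besides Fgf4, the ligands Fgf17 (32.7 and 30.3 TPM in ES cells, 0.25 and 0.48 TPM in motor neurons) and Fgf15 (17.2 and 22.1 TPM in ES cells, 0.3 and 0.22 TPM in motor neurons) fell, while Fgf9 rose from 0.02 and 0.08 TPM to 27.6 and 24.1 TPM, so the leading ligand differed between the groups. Of 24 genes of Nodal, activin and TGF-beta signalling 11 rose and 11 fell, and the total dropped from 1099.6 and 1172 TPM to 462 and 450.0 TPM. The fall came with the Nodal coreceptor Tdgf1, at 569.6 and 625 TPM in ES cells and 1.20 and 2.16 TPM in motor neurons, the antagonist Lefty1 (124 and 132 TPM in ES cells, 2.40 and 2.79 TPM in motor neurons) and the ligand Gdf3 (70.3 and 72.96 TPM in ES cells, 1.02 and 1.00 TPM in motor neurons). BMP genes were more often higher, 11 of 20 against 4 lower, with the ligand Bmp4 falling from 41.9 and 16.9 TPM to 3.31 and 4.52 TPM and Bmp7 rising from 0.91 and 0.76 TPM to 38.6 and 38.3 TPM. Of the JAK-STAT genes downstream of LIF, 7 of 21 rose and 8 fell, a split that turned to 8 and 7 with counts scaled to library totals. The feedback inhibitors Socs2 and Socs3 fell (Socs2 from 84.3 and 75.8 TPM to 12.7 and 13.1 TPM, Socs3 from 81.6 and 64.3 TPM to 10.1 and 8.73 TPM), and Jak2 rose from 2.04 and 1.63 TPM to 17.5 and 17.95 TPM.

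Of 29 Wnt ligands and receptors 15 did not pass the test, 10 rose and 4 fell. Frizzled receptors changed in composition, with Fzd5 falling from 28.4 and 24.7 TPM to 4.32 and 6.29 TPM and Fzd3, which guides axons, rising from 1.37 and 1.93 TPM to 11.8 and 11.8 TPM. Of Wnt antagonists and targets, Notum, an enzyme that inactivates Wnt proteins, fell from 27.5 and 21.04 to 1.18 and 0.59 TPM, Lef1 from 3.88 and 8.52 to 0.67 and 0.39 TPM, and the antagonist Frzb was turned on (0.07 and 0.05 TPM in ES cells, 22.4 and 27.1 TPM in motor neurons). Notch genes had 10 of 25 higher and 9 lower. Dlk1, a non-canonical ligand and an imprinted gene, was at 1.17 and 2.69 TPM in ES cells and 449.9 and 303 TPM in motor neurons.

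Chromatin regulators differed by subunit. The BAF complex, an ATP-dependent remodeller whose neuronal form carries its own subunits, had 15 of 28 genes higher and 7 lower. Actl6b, the neuronal actin-like subunit, was at 0.11 and 0.09 TPM in ES cells and 86.8 and 77.7 TPM in motor neurons (log2 fold change 9.82 ± 0.24, edgeR adjusted p 1.01e-07). Its counterpart Actl6a fell from 168 and 144 TPM to 64.8 and 62.2 TPM (log2 fold change -1.95 ± 0.15), and the 2 genes stood at near-equal levels in motor neurons. Dpf3 rose from 0.37 and 0.25 TPM to 25.9 and 25.7 TPM, and Ss18l1, the neuronal counterpart of Ss18, from 2.46 and 2.57 TPM to 33.9 and 31.1 TPM. The ATPase Smarca2 rose from 0.67 and 0.8 TPM to 32.4 and 28.8 TPM, with its paralog Smarca4 still above it at 196 and 187 TPM. The core subunit Smarcc2 passed Smarcc1 in motor neurons (127 and 111 against 97.5 and 104 TPM, from 10.1 and 10.5 against 96.9 and 93.6 TPM in ES cells). The fall of Smarcc1 was small (log2 fold change -0.63 ± 0.09) and became a rise of 0.08 with limma on TPM.

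Enzymes that write and remove DNA methylation fell in 10 of 18 and rose in 5. Dnmt3b, a de novo DNA methyltransferase, was at 134 and 244 TPM in ES cells and 10.8 and 11 TPM in motor neurons, and its inactive partner Dnmt3l fell from 375 and 366 TPM to 4.55 and 4.18 TPM. Dnmt3a fell less (-0.69 ± 0.09 on the log2 scale) and was the higher of the active pair in both motor neuron libraries (48.1 and 48.1 TPM). Among the TET dioxygenases, which oxidise methylcytosine, Tet1 fell from 67.1 and 78.2 TPM to 5.86 and 5.35 TPM and Tet3 rose from 1.59 and 2.41 TPM to 28.8 and 29.7 TPM. Dnmt3b and Tet1 were thus the higher of each pair in both ES cell libraries, and Dnmt3a and Tet3 in both motor neuron libraries. Of 20 NuRD and CHD genes 3 rose and 12 fell, a balance that turned to 10 and 3 with limma on TPM. Within it Chd3 rose from 6.66 and 6.78 TPM to 134 and 112 TPM and Hdac1 fell from 204 and 193 TPM to 89.5 and 97.3 TPM. Of the Polycomb subunits, which silence developmental genes, 12 of 30 rose and 12 fell: Eed fell from 203 and 171 TPM to 34.6 and 34.8 TPM and Phc1 from 272 and 319.7 TPM to 56.7 and 44.6 TPM, whereas Cbx8 rose from 0.29 and 0.51 TPM to 16.3 and 13.99 TPM.

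Histone genes fell in 29 of 47 and rose in 9, with a median log2 fold change of -1.97, but their total stayed at 3715 and 3357 TPM in ES cells and 3675 and 3436 TPM in motor neurons. Hist1h2ai, a gene of the large cluster that is read during DNA synthesis, fell from 13.8 and 11.1 to 0 and 3.75 TPM. Hist3h2ba and Hist3h2a, which lie outside it, rose (Hist3h2ba from 4.84 and 4.75 TPM to 109.5 and 76.7 TPM, Hist3h2a from 2.52 and 2.23 TPM to 39.2 and 30.1 TPM). Transcripts of the clustered genes mostly lack a poly(A) tail, so a poly(A) library counts only a part of them, and near-identical copies can share reads.

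RNA-binding proteins divided by class. Of 23 neuronal RNA-binding and splicing factors 22 rose and 1 fell, with a median log2 fold change of 3.07, and their total went from 203 and 213 TPM to 1670.0 and 1486 TPM. Celf3 was at 0.31 and 0.53 TPM in ES cells and 229.9 and 181 TPM in motor neurons, Elavl4 (HuD), which stabilises neuronal messages, at 1.01 and 1.14 TPM in ES cells and 221 and 176 TPM in motor neurons, and Rbfox1, a neuronal splicing factor, at 0.02 and 0.05 TPM in ES cells and 90.1 and 93.3 TPM in motor neurons. Srrm4, which drives inclusion of neuronal microexons, rose from 0.23 and 0.15 TPM to 20.1 and 19.3 TPM. The rule for naming list members asks for groups without overlap, so the lack of overlap here is not a separate result. By contrast 17 of 24 epithelial and general splicing regulators fell and 4 rose, though their total remained high at 4371 and 4235 TPM, from 5958 and 5554 TPM. Ptbp1, which represses neuronal exons, fell from 442 and 392 TPM to 194 and 198 TPM, and Ptbp2 rose by 1.35 ± 0.15 on the log2 scale to 101 and 88.7 TPM. Ptbp1 remained the higher of the pair in both motor neuron libraries. Mbnl3, of the muscleblind family of splicing factors, rose from 1.30 and 1.53 TPM to 52.96 and 68.97 TPM.

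Lin28a, which blocks maturation of the let-7 microRNA, fell from 135 and 143 TPM to 64.04 and 61.3 TPM, and Trim71, a let-7 target, from 33.2 and 34.97 TPM to 7.54 and 9.75 TPM. Hmga1, an architectural chromatin protein and another let-7 target, fell from 322 and 297 TPM to 60.2 and 61.6 TPM. Over the 20 genes of this list 6 rose and 7 fell, which turned to 8 and 7 with counts scaled to library totals. Among long non-coding RNAs, of which 10 of 22 rose and 9 fell (9 and 10 with ES cell replicate 1 left out, 8 and 9 without ES cell replicate 2, 7 and 9 without motor neuron replicate 1), H19 rose from 7.21 and 3.02 TPM to 378 and 395 TPM and Hotairm1 from 2.01 and 1.83 TPM to 167 and 189.9 TPM. For both genes the 2 motor neuron libraries lay close together.

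To set family members against each other, 33 pairs of related genes were read as the log2 ratio of 1 member, in most pairs the one known from neurons or adult tissue, to the other, with 0.1 TPM added to each value. The ratio was higher in both motor neuron libraries than in both ES cell libraries in 27 pairs. The order itself changed in 16 pairs, and in 20 the member set on top rose while the other fell. Since all 4 values of a pair come from the same libraries and some genes stand in more than 1 pair, these counts are a description. The pairs were also chosen with earlier results of these data known, and no share over other gene pairs was computed. Snap25, the neuronal membrane SNARE of vesicle fusion, stood at a log2 ratio to its ubiquitous relative Snap23 of -6.73 and -6.60 in ES cells and 2.81 and 3.06 in motor neurons. Celf3 to Celf1 went from -7.69 and -7.01 to 1.66 and 1.23, and Tet3 to Tet1 from -5.31 and -4.96 to 2.28 and 2.45. The pair Slc12a5 to Slc12a2, potassium chloride exporter against sodium potassium chloride importer, which set the chloride level of a neuron, went from -4.44 and -4.82 to 1.93 and 1.60. Mycl to Mycn went from -4.85 and -4.97 to 1.79 and 1.98.

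In the other 6 pairs the ratio did not move this way in both libraries. Slc2a3, the glucose transporter of neurons, fell against Slc2a1, from 0.52 and 0.32 in ES cells to -2.56 and -3.02 in motor neurons. Chd5, a neuronal subunit of the NuRD complex, fell against Chd4 (-5.55 and -5.84 to -7.01 and -7.64), and Ccnd1 (cyclin D1) against Ccnd3 (-1.46 and -0.61 to -2.32 and -2.31). Aldoc, the brain aldolase, kept its low ratio to Aldoa (-6.39 and -6.36 in ES cells, -6.49 and -6.51 in motor neurons), and both genes fell. Lin28b to Lin28a and Camk2b to Camk2d overlapped between the groups or stayed close (-3.54 and -3.03 in ES cells against -3.74 and -3.64 in motor neurons for the first, 1.67 and 1.09 against 1.22 and 0.97 for the second). The glucose transporter and aldolase pairs stood apart in this from the hexokinase pair, where Hk1 to Hk2 went from -2.28 and -2.90 to 3.58 and 3.38.

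**Figure D2:**
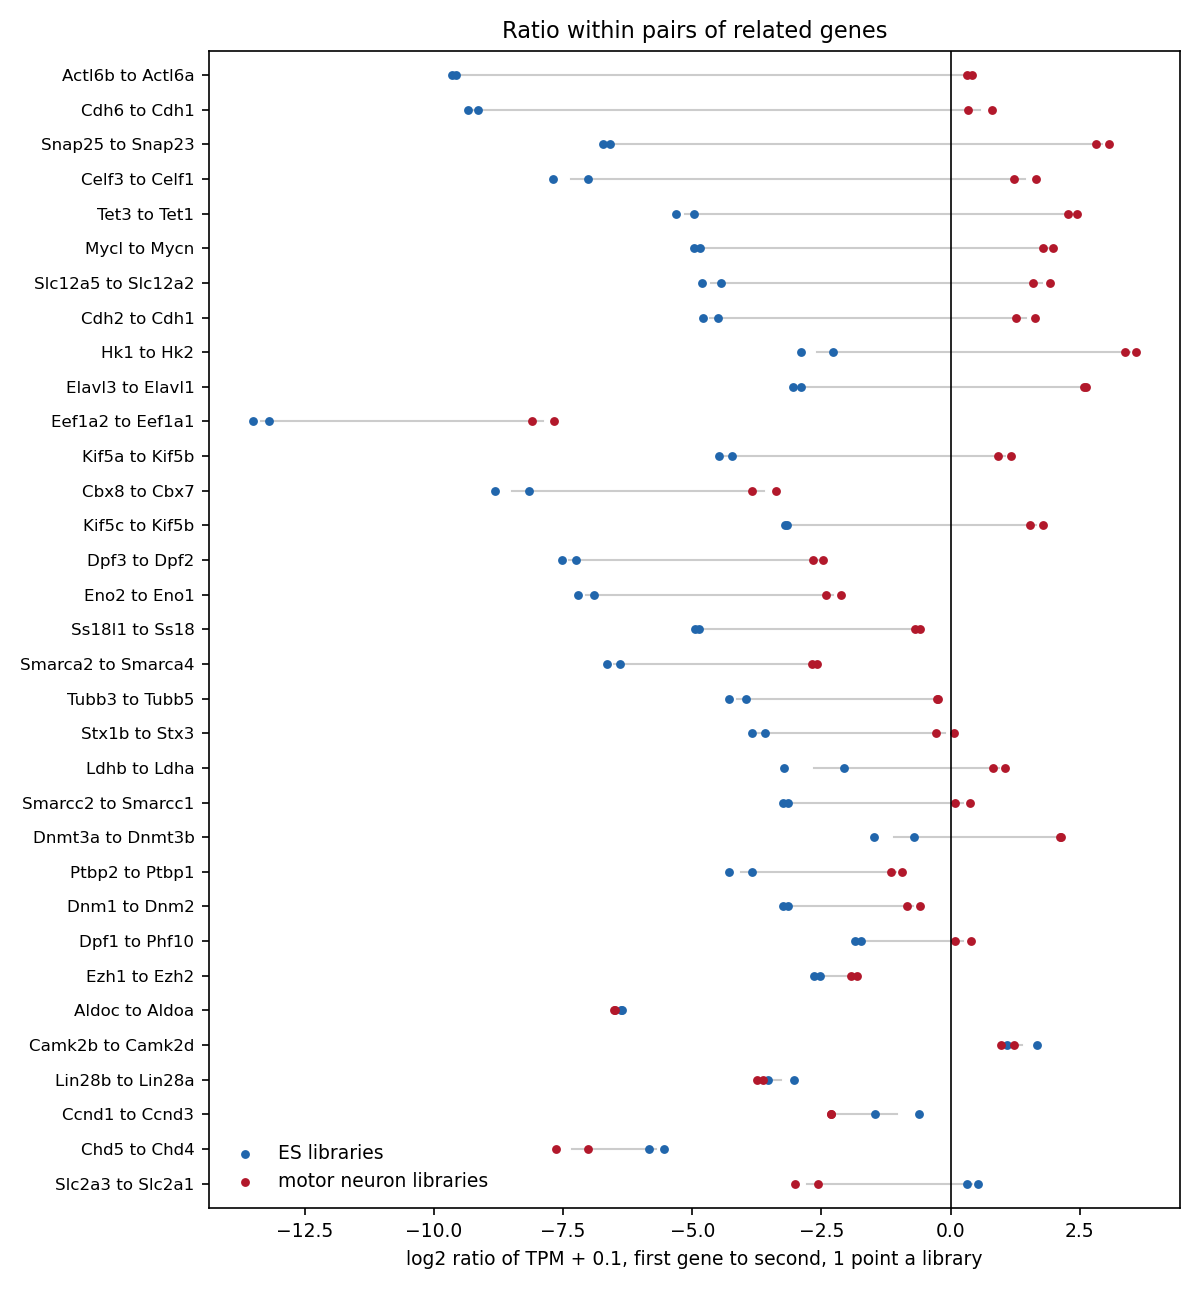
Log2 ratio of TPM (0.1 added) between the members of 33 gene pairs, in most the neuronal or adult member to the other, 1 point for each ES cell and motor neuron library. Most pairs moved to the right in motor neurons, 16 of them across the line of equal level, and the points of the 2 libraries of a group lie close together.

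Cytoskeletal motors differed by class. The 25 kinesins of axonal and organelle transport rose in 22 and fell in 2, with a total of 302 and 319.7 TPM in ES cells and 2039 and 1929 TPM in motor neurons, while 13 of 14 mitotic kinesins fell and none rose, with totals of 710.3 and 679.8 TPM in ES cells and 223 and 232 TPM in motor neurons. The order of the 2 sets of motors was thus reversed. Kif5c, a neuronal kinesin-1 heavy chain, was at 8.91 and 9.81 TPM in ES cells and 283 and 256 TPM in motor neurons, Kif5a at 3.51 and 4.77 TPM in ES cells and 184 and 168 TPM in motor neurons, and the light chain Klc1 at 30.5 and 29.9 TPM in ES cells and 594 and 548 TPM in motor neurons. Kif1a, which carries synaptic vesicle precursors, rose from 3.13 and 10.03 TPM to 144 and 136 TPM. The spindle motor Kif11 fell from 59.8 and 62.3 TPM to 13.9 and 15.5 TPM. Dyneins and dynactin, which run towards the cell body, rose in 18 of 21 and fell in 2: Dctn1 was at 45.8 and 45.2 TPM in ES cells and 215 and 178 TPM in motor neurons, and the light chain Dynll2 at 58.4 and 46.97 TPM in ES cells and 306 and 302 TPM in motor neurons.

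Tubulins made up 5682 and 5003 TPM in ES cells and 17032 and 16342 TPM in motor neurons, with 9 of 18 genes higher and 5 lower. Tubb3, the neuronal beta tubulin, rose from 68.7 and 49.3 TPM to 1703 and 1603 TPM, Tubb2a from 32.4 and 18.2 TPM to 804 and 753 TPM and Tubb4a from 1.06 and 1.87 TPM to 324 and 289 TPM. Tuba4a went the other way, from 198 and 152 TPM in ES cells to 14.7 and 17.6 TPM (log2 fold change -3.92 ± 0.21); it is known from adult neurons and as a motor neuron disease gene. Microtubule-associated proteins rose in 24 of 29, among them Stmn4 (0.58 and 1.81 TPM in ES cells, 352 and 323 TPM in motor neurons) and tau, Mapt (7.31 and 2.22 TPM in ES cells, 309 and 275 TPM in motor neurons). Growth cone and actin regulators rose in 22 of 29: Gap43 was at 11.5 and 16.8 TPM in ES cells and 713 and 654 TPM in motor neurons, and the collapsin response proteins Dpysl3, Dpysl4 and Dpysl5 rose (Dpysl3 from 19.5 and 19.98 TPM to 746 and 742 TPM, Dpysl4 from 2.82 and 1.84 TPM to 135 and 141 TPM and Dpysl5 from 6.37 and 9.55 TPM to 243 and 228 TPM). Neurofilament light chain Nefl reached 1795 and 1806 TPM from 8.51 and 10.01 TPM.

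Genes of the synapse rose on both of its sides. Of 30 genes of vesicle release 28 rose and none fell, and Snap25 went from 0.22 and 0.25 TPM to 182 and 203 TPM. Of 29 postsynaptic scaffold and adhesion genes 26 rose and 1 fell, with a median log2 fold change of 3.70. Cbln1, a secreted synapse organiser, was at 1.35 and 0.77 TPM in ES cells and 131 and 142 TPM in motor neurons, Lrrtm3, a postsynaptic adhesion protein, at 0.02 and 0.06 TPM in ES cells and 14.7 and 16.96 TPM in motor neurons, and Nlgn1 (neuroligin) had no count in ES cells and 10.2 and 8.63 TPM in motor neurons, at least 601-fold higher. All 18 ionotropic glutamate receptor subunits tested rose, with totals of 15.9 and 15.02 TPM in ES cells and 287 and 253 TPM in motor neurons. The AMPA receptor subunit Gria4 rose from 0.49 and 0.82 TPM to 31.02 and 27.2 TPM and the delta receptor Grid1 from 0.12 and 0.08 TPM to 24.1 and 24.4 TPM. Of 16 GABA-A and glycine receptor subunits 11 rose and none fell. A motor neuron receives both kinds of input, and transcripts of both were present.

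Ion channel families differed in how many members rose. Voltage-gated sodium, calcium and potassium channel genes rose in 10 of 11, 17 of 21 and 32 of 47. All 7 acid-sensing and related sodium channels tested rose. Asic4 had no count in ES cells and 61.3 and 56.3 TPM in motor neurons, at least 2320-fold higher, and Asic1 rose from 4.25 and 4.03 TPM to 26.1 and 22.7 TPM. The inward rectifier and 2-pore potassium channels were split, with 6 of 15 higher and 6 lower: Kcnj11, the pore of the ATP-sensitive channel, rose from 0.22 and 0.33 TPM to 13.3 and 15.7 TPM, and Kcnk1 fell from 7.10 and 15.4 TPM to 3.09 and 3.40 TPM. Of 21 HCN, TRP and cyclic nucleotide-gated channel genes 10 rose and 8 fell (2 with limma on TPM), and Hcn4, a pacemaker channel better known from the heart, rose from 0.04 and 0.07 TPM to 17.6 and 15.8 TPM. Of 33 Piezo, TMEM16 and chloride channel genes 16 rose and 10 fell, with Clcn4, an endosomal exchanger, going from 1.85 and 2.72 TPM to 47.9 and 43 TPM and Ano9 from 19.8 and 24.1 TPM to 0.88 and 0.6 TPM.

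Ion pumps and exchangers rose in 17 of 25 and fell in 4. The plasma membrane calcium pumps Atp2b1 and Atp2b2 rose (Atp2b1 from 14.1 and 16.7 TPM to 178 and 153 TPM, Atp2b2 from 0.18 and 0.15 TPM to 25.7 and 23.6 TPM), and the sodium calcium exchanger Slc8a1 from 0.07 and 0.18 TPM to 20.4 and 19.5 TPM. Over all 299 solute carriers tested, 139 rose and 86 fell.

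Receptors and enzymes of second messenger signalling were mostly higher. Of 41 metabotropic transmitter receptors 27 rose and 6 fell, among them Tacr3, a tachykinin receptor (0.09 and 0.07 TPM in ES cells, 15.6 and 13.7 TPM in motor neurons), and the adrenergic receptor Adra2b (0.05 and 0.16 TPM in ES cells, 12.6 and 17.6 TPM in motor neurons). Of 17 regulators of G protein signalling 12 rose and 5 fell, with Rgs7, a neuronal member, at 0.11 and 0.14 TPM in ES cells and 49.8 and 46.4 TPM in motor neurons. Phosphodiesterases and adenylyl cyclases, which break down and make cyclic nucleotides, rose in 18 of 23 and fell in 1: Pde4b was at 0.31 and 0.8 TPM in ES cells and 56.6 and 51.6 TPM in motor neurons, and Pde10a at 0.13 and 0.36 TPM in ES cells and 36.1 and 37.1 TPM in motor neurons. Protein tyrosine and dual specificity phosphatases rose in 38 of 60. Dusp8, which acts on stress kinases, went from 0.39 and 0.71 TPM to 95.4 and 94.9 TPM, and Ptprd, a presynaptic receptor phosphatase, from 0.17 and 0.26 TPM to 100.1 and 78.9 TPM. Of 25 calcium-binding proteins and calmodulin kinases 17 rose and 2 fell, with the neuronal calcium sensor Ncs1 at 3.75 and 2.85 TPM in ES cells and 69.4 and 60.9 TPM in motor neurons. Rab GTPases, which direct vesicle traffic, rose in 34 of 56 and fell in 10, and Rab6b, a neuronal Golgi member, went from 1.15 and 0.94 TPM to 127 and 115 TPM.

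Adhesion genes of neurons rose and several of epithelia fell. Of 27 neuronal adhesion genes of the immunoglobulin superfamily 23 rose and 1 fell. L1cam was at 1.22 and 2.08 TPM in ES cells and 341 and 288 TPM in motor neurons, and Lsamp had no count in ES cells and 12.4 and 11.7 TPM in motor neurons, at least 1150-fold higher. Clustered protocadherins rose in 56 of 57. Cdh1 (E-cadherin) fell from 130.3 and 200.5 TPM to 32.6 and 39.1 TPM and Cdh2 (N-cadherin) rose from 5.63 and 7.17 TPM to 101 and 94.5 TPM. Claudins and other tight junction genes fell in 11 of 23 and rose in 6. Jam2 fell from 84.7 and 74.03 TPM to 2.26 and 1.70 TPM, Epcam, an epithelial adhesion protein, from 74.4 and 127 TPM to 28.5 and 35.5 TPM and Cldn6 from 26.6 and 66.04 TPM to 12.8 and 13.01 TPM. The connexin Gja1, which couples ES cells, fell from 107 and 139.7 TPM to 3.69 and 3.60 TPM, whereas Gjb2 rose from 0.08 and 0.32 TPM to 140.3 and 158 TPM. Gap junction genes as a list had 3 of 11 higher and 5 lower, which turned to 5 and 3 with limma on TPM.

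Matrix and intermediate filament genes held members that are not neuronal. Keratins, filaments of epithelia, rose in 10 of 18 and fell in 3, and their total went from 90.8 and 79.3 TPM to 1598 and 1970.2 TPM. Krt7 and Krt19 rose (Krt7 from 0.33 and 0.53 TPM to 179 and 217 TPM, Krt19 from 5.31 and 4.94 TPM to 293 and 353 TPM). The basement membrane collagens Col4a1 and Col4a2 rose (Col4a1 from 7.35 and 14.3 TPM to 72.7 and 68.8 TPM, Col4a2 from 4.48 and 7.73 TPM to 51.3 and 51.6 TPM), and the basement membrane protein Nid2 fell from 119 and 137 TPM to 23.9 and 23.7 TPM. The placental prolactin, cathepsin, pregnancy-specific glycoprotein, Ceacam and Serpinb9 families, counted as 1 list with Tpbpa and Tpbpb, rose in 35 of 47 and fell in 8, with 21 turned on, and their total went from 42.9 and 41.7 TPM to 1606 and 1593 TPM. Their median log2 fold change was 7.60 as fitted, and 5.45 with genes at 0 to 3 counts in ES cells held at their bound or ratio. Of all 69 genes in this list, 32 had no count in ES cells and 7 had none in motor neurons. Members near 0 in ES cells could pass the filter on low counts only through motor neuron libraries. The share of 35 in 47 is therefore partly set by that filter. Krt7, itself a trophoblast marker, and other keratins rose in the same libraries as the placental genes. The part of such cells in the keratin, Gjb2 and collagen values was not tested.

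The machinery of growth was lower in motor neurons. Ribosomal protein genes fell in 81 of 82 and rose in none, with a median log2 fold change of -1.64, and their total went from 172487 and 174894 TPM to 87635 and 88643 TPM. Rps2 was at 3265 and 3289 TPM in ES cells and 1086 and 1047 TPM in motor neurons. Many of these genes have processed copies elsewhere in the genome that can share reads, so single members are uncertain. All 25 ribosome biogenesis factors fell, with a median log2 fold change of -2.16 and totals of 10370.4 and 10059 TPM in ES cells and 2791 and 2908 TPM in motor neurons: the nucleolar protein Npm1 went from 4682 and 4554 TPM to 1042 and 1095 TPM, and Dkc1, which modifies ribosomal RNA, from 240.1 and 222 TPM to 54.1 and 52.8 TPM. Of 58 translation factors 47 fell and 5 rose, with totals of 27775 and 26570 TPM in ES cells and 20699 and 20673 TPM in motor neurons. Among those that rose were Eef1a2, the elongation factor of neurons and muscle (0.68 and 0.8 TPM in ES cells, 36.5 and 26.5 TPM in motor neurons), and Eif4e3 (0.57 and 0.86 TPM in ES cells, 14.2 and 16.6 TPM in motor neurons). Mitochondrial ribosomal proteins fell in 69 of 78 and rose in 2, with a median log2 fold change of -0.85. Their total was 7030 and 6755 TPM in ES cells and 5431 and 5428 TPM in motor neurons. Proteasome subunits fell in 34 of 39 and rose in 1, with a median of -0.73. They summed to 8076 and 7661 TPM in ES cells and 6900 and 7141 TPM in motor neurons. In both lists the summed TPM fell less than the median of the count fit, so the size of the fall depends on the scale.

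Myc family genes moved in opposite directions. Mycn fell from 136 and 190.0 TPM to 19.7 and 16.4 TPM (log2 fold change -3.76 ± 0.19) and Mycl rose from 4.59 and 5.98 TPM to 68.3 and 65.1 TPM (2.96 ± 0.22). Mxd4, which opposes Myc by taking its partner Max, rose from 2.10 and 2.34 TPM to 64.1 and 59.1 TPM. The groups did not overlap for any of these genes, which the rule for naming list members asks for.

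Several groups of metabolic enzymes were lower. Glycolysis genes fell in 17 of 24 and rose in 6, and the total of the list went from 12633 and 12840.0 TPM to 5309 and 5176 TPM. Ldha, which makes lactate, fell from 1029 and 1356 TPM to 128 and 144.7 TPM and Eno1 from 1053 and 1073 TPM to 208 and 182 TPM. Hexokinases changed places, with Hk2 at 82.1 and 76.2 TPM in ES cells and 7.03 and 7.85 TPM in motor neurons and Hk1 at 16.8 and 10.1 TPM in ES cells and 84.9 and 82.7 TPM in motor neurons. Pdk1, a kinase that keeps pyruvate out of mitochondria, fell from 109.6 and 100.1 TPM to 11.3 and 8.42 TPM. The glucose transporter Slc2a3, known from neurons, fell from 347 and 375 TPM to 31.5 and 27.7 TPM, and the arginine transporter Slc7a3 from 151 and 203 TPM to 2.49 and 1.92 TPM. Slc7a11, the cystine exchanger, rose from 0.42 and 0.69 TPM to 30.1 and 26.4 TPM. Citrate cycle enzymes (5 of 24 higher, 11 lower) and nuclear respiratory chain genes (1 of 79 higher, 62 lower) turned to 14 higher and 3 lower and to 27 higher and 18 lower with limma on TPM. Summed respiratory chain levels were close, 23253 and 23177 TPM in ES cells and 22407 and 22124 TPM in motor neurons, so no direction is given for these lists.

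Of 20 serine, glycine and one-carbon enzymes, which feed nucleotide and methyl group synthesis, 19 fell and 1 rose, with totals of 2268 and 2135 TPM in ES cells and 629 and 636 TPM in motor neurons. Tdh, the threonine dehydrogenase on which mouse ES cells depend, was at 371 and 299 TPM in ES cells and 2.68 and 1.82 TPM in motor neurons (log2 fold change -7.89 ± 0.27, edgeR adjusted p 1.9e-07). Gldc, of the glycine cleavage system, fell from 144 and 154 TPM to 5.01 and 6.34 TPM and Shmt1 from 171 and 158 TPM to 14.9 and 15.02 TPM. Nucleotide synthesis enzymes fell in 19 of 22 and rose in 2. Prps1 and Ppat, the first steps of purine synthesis, fell (Prps1 from 119 and 118 TPM to 27.1 and 27.3 TPM, Ppat from 77.6 and 68.7 TPM to 17.6 and 17.7 TPM). Of 26 genes against oxidative stress 16 fell and 6 rose: the peroxiredoxin Prdx1 fell from 1543 and 1508 TPM to 397 and 467 TPM and Sod1, a motor neuron disease gene, from 1629.9 and 1431 TPM to 606 and 631 TPM, while the secreted Gpx3 rose from 13.2 and 20.3 TPM to 159.7 and 114 TPM.

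Genes of lipid synthesis were mostly higher. Cholesterol synthesis enzymes rose in 19 of 24 and fell in 1, with a median log2 fold change of 0.66 and totals of 1069.5 and 973 TPM in ES cells and 2622 and 2616 TPM in motor neurons. Hmgcs1, an early enzyme of the pathway, was at 85.4 and 68.98 TPM in ES cells and 389.9 and 375 TPM in motor neurons, and Fdft1, which makes squalene, at 44.6 and 34.04 TPM in ES cells and 147 and 148 TPM in motor neurons. Hsd17b7, a late enzyme, rose from 5.07 and 5.46 TPM to 44.6 and 46.1 TPM (log2 fold change 2.46 ± 0.11, edgeR adjusted p 4.65e-07). Its promoter is shown because the list had a high share of promoters with CCAAT, the box bound by NF-Y, and with GGGCGG, the GC box bound by SP and KLF factors. In windows of 300 bases around the start (250 before to 50 after), searched on both strands, CCAAT stood in 88.9% of the 18 windows of the list and 38.8% of the windows of all tested genes, and GGGCGG in 88.9% and 61.8%. The 250 bases before the start of Hsd17b7 (GRCm38.p6, chr1:169969206-169969455, minus strand, from RefSeq) are printed 5′ to 3′ with both kinds of box in capitals, CCAAT at 165, 73 and 12 and GGGCGG at 227, 182 and 134 bases before the start, all but 1 of them as the reverse complement.
Hsd17b7: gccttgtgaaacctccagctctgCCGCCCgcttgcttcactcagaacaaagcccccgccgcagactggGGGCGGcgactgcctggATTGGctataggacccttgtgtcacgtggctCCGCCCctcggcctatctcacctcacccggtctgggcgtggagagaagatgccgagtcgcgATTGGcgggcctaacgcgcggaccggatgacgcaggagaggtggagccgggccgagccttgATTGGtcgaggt

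Fatty acid and sphingolipid enzymes rose in 18 of 25 and fell in 4. The ganglioside synthases St8sia3 and B4galnt1, which make the sialic acid lipids of neuronal membranes, rose (St8sia3 from 1.13 and 2.09 TPM to 29.5 and 26.5 TPM, B4galnt1 from 2.61 and 3.42 TPM to 43.5 and 37.3 TPM). Lysosome and autophagy genes rose in 16 of 29 and fell in 3, and their total went from 1690.4 and 1671 TPM to 4166 and 4280.1 TPM. The protease Ctsb was at 23.6 and 23.9 TPM in ES cells and 213 and 248 TPM in motor neurons, and Gabarapl1, of the autophagosome, at 20.5 and 18.7 TPM in ES cells and 201 and 194 TPM in motor neurons. Vacuolar ATPase subunits, which acidify lysosomes and synaptic vesicles, rose in 13 of 19 and fell in 3, with Atp6v0a1 going from 16.1 and 17.1 TPM to 161 and 146 TPM and Atp6v1g2, a neuronal subunit, from 0.57 and 1.06 TPM to 31.03 and 24.7 TPM. Heat shock proteins and chaperones had 26 of 75 higher and 35 lower, which turned to 35 and 26 with limma on TPM.

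**Figure D3:**
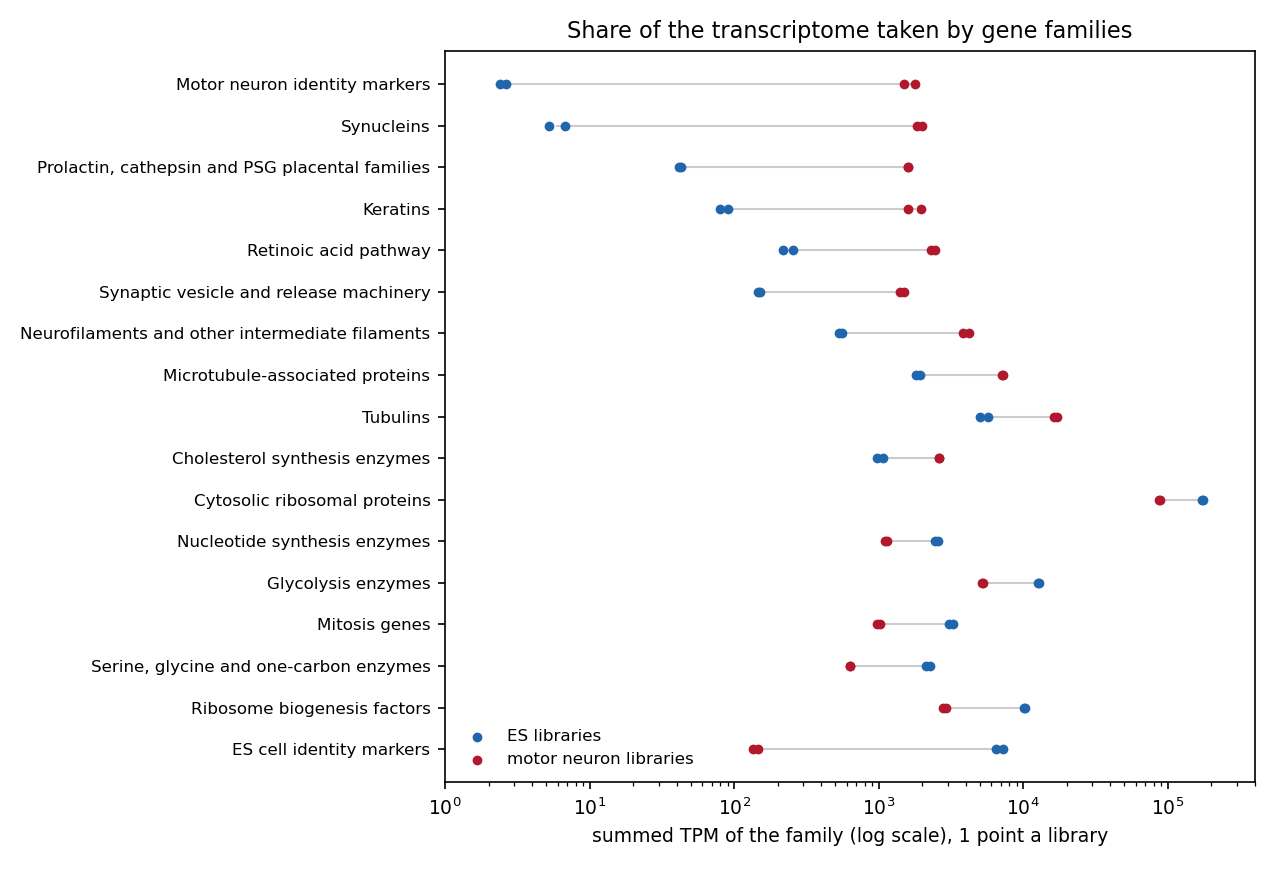
Summed TPM of selected gene families in each of the 4 libraries, on a log axis. The 2 libraries of a group lie on top of each other for nearly all families. Ribosomal, glycolytic and mitosis families are lower in motor neurons, while tubulin, microtubule-associated protein, cholesterol and synaptic vesicle families are higher.

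Genes of cell division fell without exception in 3 lists: 29 of 29 DNA replication genes, 29 of 29 mitosis genes and 26 of 26 DNA repair genes, with median log2 fold changes of -2.13, -2.40 and -2.19. None was turned off by the rule above, and the mitosis list still summed to 974 and 1013 TPM in motor neurons, from 3244 and 3080.5 TPM. Cdc20, the activator of the anaphase-promoting complex, was at 277 and 266 TPM in ES cells and 59.3 and 64.4 TPM in motor neurons. Ect2, which starts cytokinesis, went from 95.7 and 102 TPM to 13.5 and 14.4 TPM (log2 fold change -3.17 ± 0.30, edgeR adjusted p 2.48e-05), and Prim1, the primase subunit of DNA synthesis, from 67.6 and 67.3 TPM to 22.7 and 22.1 TPM (-2.30 ± 0.25, edgeR adjusted p 5.04e-05). The mismatch repair gene Msh6 fell from 212 and 186 TPM to 28.4 and 28.3 TPM. Of 19 inhibitors of cyclin-dependent kinases and genes of cell cycle exit 11 rose and 2 fell, with Cdkn1c (p57) at 39.1 and 42.6 TPM in ES cells and 695 and 775 TPM in motor neurons and Cdk5r1, the activator of the neuronal kinase Cdk5, at 0.61 and 0.72 TPM in ES cells and 85.2 and 74.2 TPM in motor neurons. Trp53 itself (p53) fell from 349.7 and 292 TPM to 87.4 and 78.7 TPM, while its target Cdkn1a rose from 22.4 and 20.7 TPM to 197 and 179 TPM.

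The promoters of these lists are shown for the elements they share. TTTGAA, the cell cycle homology region of genes read in late cell cycle, stood in 68.0% of the 25 windows of the mitosis list and 76.9% of the 13 windows of the mitotic kinesins, against 11.8% of all tested genes. CCAAT stood in 76.0% and 69.2%. TTCCCGC, a core of E2F sites, stood in 50% of the 22 windows of DNA replication genes and 44.4% of the 18 windows of DNA repair genes, against 8.1% of all tested genes. E2F factors and the complexes on the homology region are known to time these genes to phases of the cycle; a match of letters is only a description. Of the members whose 250 bases before the start hold both elements named for their list, the one with the smallest adjusted p is printed from RefSeq (GRCm38.p6), with the elements in capitals. Ect2 (chr3:27153879-27154128, minus strand) has TTTGAA at 114 and CCAAT at 96 and 55 bases before the start, and Prim1 (chr10:128014965-128015214, plus strand) has TTCCCGC at 15 and CCAAT at 9, which overlap.
Ect2: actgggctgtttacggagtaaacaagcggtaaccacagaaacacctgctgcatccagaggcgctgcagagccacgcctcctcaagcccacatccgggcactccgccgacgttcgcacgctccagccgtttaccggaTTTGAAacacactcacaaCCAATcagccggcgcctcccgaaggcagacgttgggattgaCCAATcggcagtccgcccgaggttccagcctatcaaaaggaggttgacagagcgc
Prim1: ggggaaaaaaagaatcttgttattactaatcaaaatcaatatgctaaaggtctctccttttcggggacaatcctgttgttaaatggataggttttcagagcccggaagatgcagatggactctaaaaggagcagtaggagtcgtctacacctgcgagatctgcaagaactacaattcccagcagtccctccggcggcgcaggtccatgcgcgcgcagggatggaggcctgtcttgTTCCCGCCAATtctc

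Germline genes, many of which are held silent in body cells by promoter methylation, were partly active in ES cells: 12 of 24 fell and 6 rose. Their summed level was nonetheless higher in motor neurons, at 427 and 300.1 TPM in ES cells and 543 and 604 TPM in motor neurons. Rhox5, a homeobox gene of testis and placenta that was chosen after its values were seen, had the highest level of the list in every library (181 and 115 TPM in ES cells, 335 and 393 TPM in motor neurons) and did not pass the test. The testis tubulin Tuba3b rose from 0.34 and 0.15 TPM to 6.66 and 4.97 TPM, values that are uncertain where reads are shared with its near-identical copy Tuba3a. Sycp3, of the synaptonemal complex that pairs chromosomes in meiosis, was at 36.4 and 30.5 TPM in ES cells and 2.33 and 1.56 TPM in motor neurons (log2 fold change -4.75 ± 0.25, edgeR adjusted p 9.94e-07). Hormad1, another axis protein of meiotic chromosomes, fell from 11.4 and 6.48 TPM to 1.84 and 1.11 TPM. CACGTG, an E-box bound by Myc, by partners of E2F6 and by other bHLH factors, stood in 56.5% of the 23 windows of this list and in 9.8% of all tested genes. Sycp3 is shown (RefSeq, GRCm38.p6, chr10:88459337-88459586, plus strand) with CACGTG in capitals at 64 and 43 bases before the start.
Sycp3: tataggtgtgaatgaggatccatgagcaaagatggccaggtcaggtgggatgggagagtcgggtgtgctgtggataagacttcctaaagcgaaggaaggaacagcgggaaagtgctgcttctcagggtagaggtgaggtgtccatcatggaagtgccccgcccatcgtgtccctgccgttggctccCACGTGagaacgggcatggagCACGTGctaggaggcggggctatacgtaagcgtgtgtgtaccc

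In the motor neuron peak lists, 69.6% of the 23 germline windows overlapped an H3K9me3 peak, against 4.2% of the windows of all tested genes. A high share was not particular to germline genes: it was 100% of 7 paired box, 81.8% of 11 Nkx and 61.9% of 21 imprinted gene windows. No window of the mitosis and DNA replication lists overlapped such a peak. The H3K9me3 list came from 1 library. Of genes of the 2-cell embryo 11 of 13 did not pass, 2 rose and none fell. Of 8 olfactory and vomeronasal receptors that passed the filter on low counts, out of 1318 in the files, 7 fell and 1 rose; the rest were too low to test. Of 25 interferon and antigen presentation genes 7 rose and 9 fell, which turned to 9 and 8 with limma on TPM. Within that list Ifitm1 and Ifitm3, membrane proteins that ES cells express without interferon, fell (Ifitm1 from 606 and 641 TPM to 7.83 and 5.89 TPM, Ifitm3 from 812 and 661 TPM to 44.9 and 48.97 TPM).

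Histone marks at the promoters give a readout that the classes did not use, though only of the motor neuron side, since the peak lists used here come from wild-type motor neurons and none from ES cells. The lists were pooled over replicates by the authors, except that of H3K9me3, which came from 1 library. A promoter window was counted when it overlapped a peak. H3K4me3, a mark of active and poised starts, covered 86.9% of the 559 windows of genes turned on, 47.4% of the 57 windows of genes turned off, and 84.8% of the windows of all tested genes. H3K27ac, a mark of active elements, covered 59.2%, 1.8% (1 window) and 61.9% (the peaks of this list carry a name with KO, and the label, wild type, was followed). The genes turned on were thus close to all tested genes for both marks, and the genes turned off lower.

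H3K27me3, the Polycomb mark, covered 42.0% of the windows of genes turned on, 31.6% of those of genes turned off and 16.7% of those of all tested genes. Both H3K4me3 and H3K27me3 lay on 41.7%, 28.1% and 16.1%. Marks of different cells in the culture cannot be told apart in these lists. Among gene families the shares varied widely: H3K27me3 covered 18 of 22 Hox windows (81.8%), 13 of 17 windows of proneural and neuronal bHLH factors (76.5%) and 12 of 14 windows of core pluripotency factors (85.7%), but no window of the mitosis, DNA replication, DNA repair, cholesterol or ribosome biogenesis lists. Genes that rose and genes that fell thus both stood among the marked families. Windows of placental genes had almost no mark of any kind, with H3K4me3 on 1 of 60 (1.7%). All 69 genes of that list, 9 of them without a window, summed to 1606 and 1593 TPM in motor neurons.

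**Figure D4:**
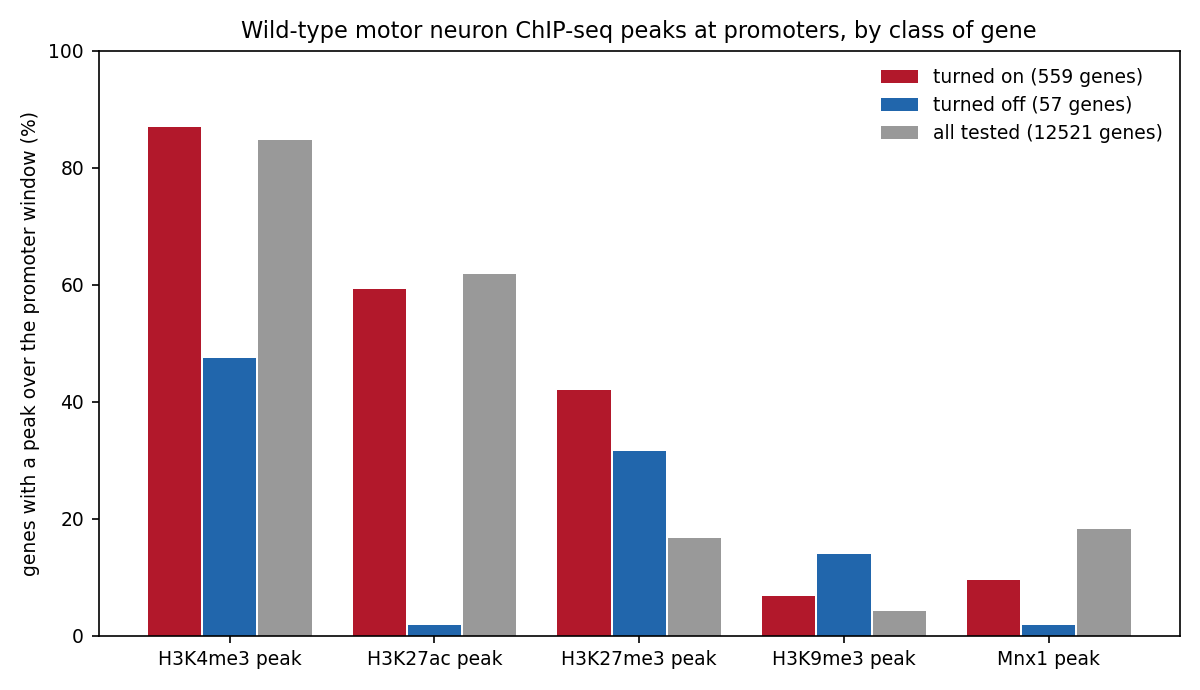
Percent of promoter windows that overlap a peak of each mark, or of Mnx1, in wild-type motor neurons, for genes turned on (559 windows), turned off (57) and all tested (12521). H3K27me3 is more frequent at genes turned on (42.0%) than at all tested genes (16.7%), and H3K27ac is nearly missing at genes turned off (1.8%).

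Mnx1 itself, mapped by its peaks in the same cells, lay on 9.5% of the windows of genes turned on and 18.3% of those of all tested genes. A peak in the window was thus less frequent at the genes turned on than at tested genes at large. By family the share was 53.8% of the 13 windows of cyclin-dependent kinase inhibitors and exit genes and 50% of the 18 windows of cholesterol synthesis genes. It was 4.0% of the 25 windows of mitosis genes. The other division lists were close to all tested genes, with 18.2% of 22 DNA replication windows and 16.7% of 18 DNA repair windows. Promoter sequence differed as well: the median ratio of observed to expected CpG was 0.65 for genes turned on, 0.44 for genes turned off and 0.73 for all tested genes. TAATTA, a core of homeodomain sites, stood in 2.3% of the windows of genes turned on, 10.5% (6 windows) of those of genes turned off and 2.6% of all tested. CAGCTG, an E-box of proneural factors among others, stood in 20%, 17.5% and 15.7%.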

How the data were processed

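Expected counts and TPM per gene were deposited by the authors for each library, per the file headers. The submitters' processing notes name Trim Galore, STAR, RSEM and the mm10 build among others, without versions or roles; the kit was stranded and the RNA poly(A) selected. Peak lists were deposited as coordinates, 1 per mark and genotype, and only whether a promoter window overlapped a peak was used.

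The expected counts were rounded and fitted with edgeR 4.0.16 (R 4.3.3; TMM, filterByExpr, quasi-likelihood test, Benjamini-Hochberg adjustment, threshold 0.05) over all 8 RNA libraries in 4 groups, which left 17770 of 45706 genes and 4 residual degrees of freedom. Totals ran from 11.2 M to 53.2 M counts. TPM served for levels. Limma 3.58.1 and DESeq2 1.42.0 were alternatives, with Python 3.11.15 for the rest. On data simulated for this comparison over 17770 genes, the fit recovered 83% of 100 genes changed by 2-fold and 100% of 100 changed by 4-fold, with 11 false calls. The changed genes were well-counted ones, balanced up and down, and all genes shared 1 dispersion. In the data 75.3% of the genes were called, so these rates do not carry over to low genes or to the choice of scale. A group with no count was set to 3 counts in all for its fold; 95% counting intervals cover counting error only.

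The gene lists (133, 12 of them markers) and pairs were chosen with earlier results of these data known. Genes were named by rule: in each list up to 4 members with the largest significant change, libraries that do not overlap and at least 5 TPM in the higher group, all pairs and markers, the 15 highest genes turned on and off, and the 10 highest of each group, without provisional names, pseudogenes and mitochondrial genes. The 4 printed promoters (Ect2, Prim1, Hsd17b7, Sycp3) were chosen after the values were seen, and Prim1 was named only for its promoter. A few genes and 1 pair that the rule named are not reported here. Promoter windows and sequences are from RefSeq (GRCm38.p6) and matched 12521 of 17766 tested symbols; 9 motifs were searched.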

Additional observations from a re-analysis of the deposited data

How the results depend on the processing

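The number of genes turned on stayed at 824 or 825 and of genes turned off at 105 to 129 in all refits. The refits changed only the significance call and kept the TPM limits of these classes, so the counts could move little. Other level limits moved the counts, to 354 on and 36 off (under 0.5 and at least 10 TPM) and 213 off (under 2 and at least 5 TPM). Genes higher in motor neurons numbered 6409 with DESeq2 to 8735 with limma on log2(TPM + 0.1), and genes lower fell from 6484 to 3766 and 3659 with limma on log2(TPM + 1) and log2(TPM + 0.1), under which 214 and 216 calls turned direction. Leaving out 1 library gave 6271 to 6935 genes higher and 5575 to 6779 lower. Of 9678 recomputed values of 572 named genes, 9578 kept their direction and side of the threshold and 6 reversed, in 3 genes with small changes, all with limma on log2(TPM + 1) and log2(TPM + 0.1): the Cbx7 log2 fold change (0.0784 and 0.0787), the Chd4 log2 fold change (0.316 and 0.317) and the Smarcc1 log2 fold change (0.0814 and 0.0821). The cause was not tested; the median log2 fold change over the genes each fit tested was 0.53 and 0.63 on these TPM scales and 0.02 in the count fit. A fit with the replicate number as a block gave 6786 higher and 6343 lower. Replicate numbers did not pair the samples: deviations of same-numbered ES cell and motor neuron libraries correlated at -0.031. Peaks counted within 1 kb of the start raised H3K27me3 to 55.8% of genes turned on, 40.4% of genes turned off and 22.2% of all tested. The ES cell libraries are about 4 times deeper, and with their counts thinned to motor neuron depth 6720 genes were higher and 5747 lower.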
